A study of Mus musculus with 8 samples.

Results

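A set of 10 marker genes of the primitive endoderm and its visceral derivative were examined across wild-type and Rex-1-targeted mouse embryonic stem cells: Gata4, Gata6, Sox7, Sox17, Pdgfra, Foxa2, Hnf4a, Dab2, Afp and Ttr. These 10 genes, of 18193 with a named probe set on the array, were chosen by name as lineage markers, and all 30 probe sets annotated to them were taken. The cells were J1 embryonic stem cells and J1-derived cells labelled Rex-1-/-, which lack by label the zinc finger protein encoded by Zfp42. Each was grown on gelatin in serum-containing medium with leukemia inhibitory factor (LIF) or without it. The 4 groups were J1 with LIF, J1 without LIF, knockout with LIF and knockout without LIF, with 2 arrays each. A culture of 12 hours without LIF is stated in text that all 8 arrays share. For the knockout arrays labelled as lacking LIF, the growth text mentions LIF while the title and treatment text do not, and the latter were followed. Each pair of arrays is described as biological replicates, with no word on separate cultures or on how many knockout clones were used, so p-values measure only the spread between arrays, which may be technical.

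Primitive endoderm is the extraembryonic layer that separates from the epiblast in the late blastocyst, under FGF and ERK signalling. Gata6 acts at the head of a cascade through Gata4, Sox17 and Sox7, and the layer then forms visceral endoderm, which absorbs and secretes nutrients around the embryo, and parietal endoderm, which lays down basement membrane. Embryonic stem cell cultures are known to hold a small, variable share of cells that turn on this programme. In bulk RNA, fewer cells of a type cannot be told apart from less RNA per cell.

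The arrays had median intensities of 114.2 to 143.5 per probe set. The second knockout array with LIF stood apart, with 91.2% of its probe sets at a log2 intensity of at least 4 against 85.2% to 87.4% on the other arrays. Zfp42 read 14.17, 14.51, 14.15 and 14.33 on the J1 arrays and 14.14, 14.08, 14.06 and 14.03 on the knockout arrays, a log2 difference of -0.21 (SE 0.16, limma adjusted p = 0.985). Its signal was thus high on the arrays labelled knockout too. No source used here places its probes relative to the targeted stretch of the gene, so "knockout" refers to the label throughout. The list of 16 pluripotency genes had a mean log2 level of 12.08 to 12.57 on every array, a high signal for markers of embryonic stem cells.

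Signal was weak for most of the marker probe sets, and for 3 of the 10 genes in every probe set. A probe set was taken as near background where its mean log2 intensity over the 8 arrays was under 6, and 16 of the 30 (53.3%) were, against 37.3% of all 45037 probe sets. For Afp, the fetal serum protein made by visceral endoderm, all 5 probe sets were near background, with means of 2.77 to 4.35. For Ttr, which carries thyroid hormone and retinol and is secreted by visceral endoderm, all 4 were, with means of 2.00 to 5.32. The single probe set of Foxa2, a forkhead factor of endoderm, had a mean of 5.81. The other 7 genes each had at least 1 probe set at 6 or more. These were 3 of 4 for Dab2, an endocytic adaptor needed for the visceral endoderm, 3 of 4 for Hnf4a, a nuclear receptor that drives visceral endoderm genes, and 2 of 3 each for Gata6 and for Pdgfra, a growth factor receptor that marks primitive endoderm early. Both Sox17 probe sets, 1 of 2 for Sox7 and 1 of 2 for Gata4 were also at 6 or more. The nearest to the limit were the second Gata4 probe set (1418864_at, mean 5.92) and a Dab2 probe set (1423805_at, mean 6.07). Intensity depends on the probes, so levels are not ranked between genes.

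**Figure D1:**
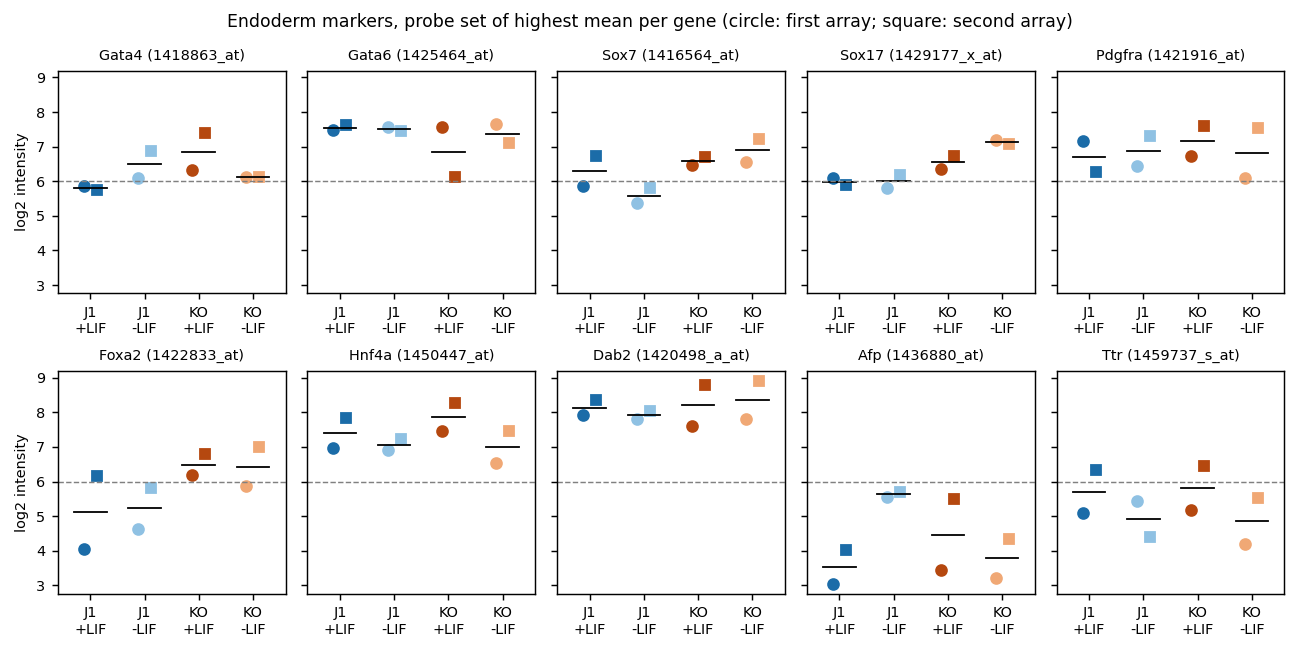
Log2 intensity (vertical axis) of the 10 endoderm markers, each by its probe set of highest mean, in the 4 groups (horizontal axis; KO is the label knockout). Circles are the first and squares the second arrays, black bars the group means, and the dashed line is the limit of 6; only for Sox17 do the 4 knockout arrays (6.37 to 7.19) all lie above the 4 J1 arrays (5.82 to 6.19).

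The promoters of markers on both sides of that limit are shown, to show how their start sites differ in CG content. RefSeq windows of 300 bases in assembly GRCm38.p6, from 250 bases before to 50 after a start, were matched for 5 of the 10 genes (Foxa2, Hnf4a, Pdgfra, Afp and Dab2), with 9 windows. Those of Gata4, Gata6, Sox7, Sox17 and Ttr were not matched. The median over all 32851 windows was 7 CG dinucleotides. The Afp window held 3, a number or fewer that 31.4% of all windows share. Dab2 has a start with 2 and another with 19, and the Foxa2 windows held 12, 23 and 13. Both Hnf4a windows held 4 and the Pdgfra window 5. The GATA core letters GATAA, searched on both strands, were in 3 of the 9 windows (at 1 start each of Foxa2, Hnf4a and Dab2) and in 25.4% of all windows. A match is a description of the letters alone. The 250 bases before the start, 5′ to 3′ on the strand of the gene, are given with each CG in capitals, for the Afp start (chr5:90490464-90490713, plus strand, 1 CG) and for the CG-rich Dab2 start (chr15:6386498-6386747, plus strand, 17 CG).
Afp: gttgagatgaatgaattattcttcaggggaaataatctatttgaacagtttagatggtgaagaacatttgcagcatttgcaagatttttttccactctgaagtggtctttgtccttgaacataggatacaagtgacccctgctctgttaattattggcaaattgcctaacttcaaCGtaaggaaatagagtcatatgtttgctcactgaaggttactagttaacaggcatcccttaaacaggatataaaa
Dab2: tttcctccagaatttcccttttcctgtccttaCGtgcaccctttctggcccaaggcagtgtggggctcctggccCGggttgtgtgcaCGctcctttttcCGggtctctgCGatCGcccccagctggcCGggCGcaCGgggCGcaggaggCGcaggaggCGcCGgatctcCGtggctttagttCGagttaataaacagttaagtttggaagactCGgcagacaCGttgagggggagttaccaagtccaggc

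The first comparison asked whether endoderm markers differ when Rex-1 is targeted. Averaged over LIF, 0 of the 28 marker probe sets that passed the filter on low values were called by limma at an adjusted p under 0.05. The share called among all 43439 probe sets was also 0%. At an unadjusted p under 0.05 there were 2 of 28, beside 5.27% of all probe sets. By the probe set of highest mean, 8 of the 10 genes had a positive and 2 a negative difference, knockout minus J1, with a median of 0.23 on the log2 scale. The count rested on single arrays: it was 4 positive of 10, with a median of -0.02, without the second knockout array without LIF, and 5 of 10 without the second knockout array with LIF. Leaving out any other single array gave 6 to 9 positive of 10. The median over all 17836 genes was 0.01, and 51.9% of them were positive. The 2 probe sets of unadjusted p under 0.05, a count near the share over all probe sets, belonged to Sox17 and Sox7. The other probe set of each gene did not show the difference, at -0.90 (SE 0.85) for Sox17 and -0.08 (SE 0.91) for Sox7.

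Sox17, which is required for definitive endoderm and acts in primitive endoderm, stood out by its probe set 1429177_x_at. It read 6.10 and 5.88 in J1 cells with LIF, 5.82 and 6.19 in J1 cells without LIF, 6.37 and 6.73 in knockout cells with LIF, and 7.19 and 7.07 in knockout cells without LIF. Every knockout array was above every J1 array, which held for 1 of the 28 marker probe sets and for 2.1% of all probe sets. The averaged difference was 0.84 (SE 0.19), with 0.56 (SE 0.27) with LIF and 1.12 (SE 0.27) without it. It was not called (limma adjusted p = 0.754), and over 14 alternatives the difference ran from 0.71 to 0.93 and the adjusted p from 0.394 to 1.00. The suffix x marks a probe set with probes that can also match other transcripts. The other Sox17 probe set (1421657_a_at) did not show the difference. It read 5.68 and 7.43, 6.75 and 7.02, 6.90 and 3.35, and 6.74 and 6.31 in the same order of groups, an averaged difference of -0.90 (SE 0.85). Its lowest value was on the second knockout array with LIF, and without that array the difference was -0.01. The probe sets of the gene thus gave opposite signs.

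Sox7, a marker of primitive and then parietal endoderm, read 5.87 and 6.74 in J1 cells with LIF and 5.36 and 5.79 in J1 cells without LIF (probe set 1416564_at). It read 6.47 and 6.70 in knockout cells with LIF and 6.57 and 7.23 in knockout cells without LIF. The knockout arrays lay above both J1 arrays without LIF and overlapped those with LIF. The averaged difference was 0.80 (SE 0.29, limma adjusted p = 0.917), and over the alternatives it ran from 0.58 to 1.02. Without LIF it was 1.32 (SE 0.41) and with LIF 0.28 (SE 0.41), and the interaction of 1.04 (SE 0.58) was not called. The second Sox7 probe set (1432495_at, mean 5.14) had a difference of -0.08 (SE 0.91).

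Gata4 and Gata6, zinc finger factors that can each drive embryonic stem cells into extraembryonic endoderm when forced, gave no common direction. Gata6 (1425464_at) read between 7.11 and 7.64 on 7 arrays, and 6.12 on the second knockout array with LIF. Its averaged difference was -0.42 (SE 0.36), and -0.05 without that array. Its second probe set above the limit (1425463_at) differed by -0.15 (SE 0.38). Gata4 (1418863_at) read 5.87 and 5.74 in J1 cells with LIF, 6.11 and 6.88 in J1 cells without LIF, 6.31 and 7.41 in knockout cells with LIF, and 6.11 and 6.13 in knockout cells without LIF. The difference was 1.06 (SE 0.45) with LIF and -0.37 (SE 0.45) without LIF, and 0.34 (SE 0.32) on average. Its highest value, too, was on the second knockout array with LIF. Without that array the difference was 0.51 with LIF and 0.07 on average, and leaving out any single array gave averages of 0.07 to 0.62. Its near-background probe set (1418864_at) differed by -1.42 (SE 0.50) without LIF. None of these was called, and the interactions of -1.43 (SE 0.64) and -1.68 (SE 0.70) for the pair of Gata4 probe sets were not either (limma adjusted p = 1.00 for each).

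**Figure D2:**
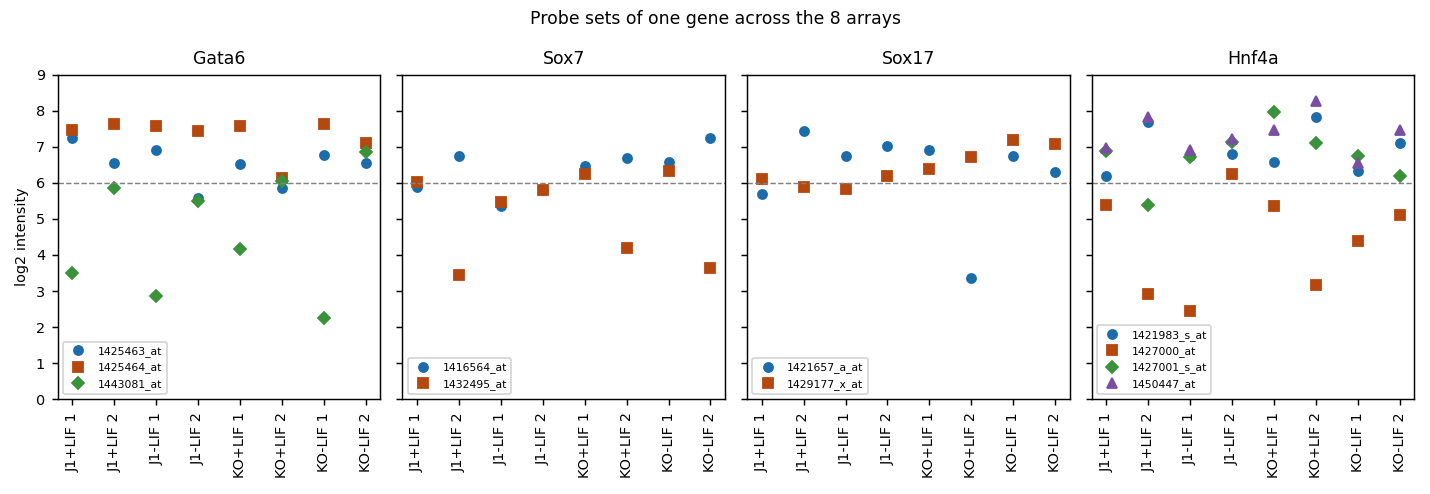
Log2 intensity (vertical axis) of every probe set of Gata6, Sox7, Sox17 and Hnf4a on the 8 arrays (horizontal axis; KO is the label knockout, 1 and 2 the first and second arrays; dashed line at 6). Probe sets of one gene part on single arrays, as for Sox17 at 6.73 and 3.35 on the second knockout array with LIF.

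Foxa2 read 4.05 and 6.17 in J1 cells with LIF, 4.62 and 5.82 in J1 cells without LIF, 6.18 and 6.79 in knockout cells with LIF, and 5.86 and 6.99 in knockout cells without LIF. The averaged difference was 1.29 (SE 0.60, limma adjusted p = 0.978) and ran from 0.76 to 1.82 over 13 alternatives. With either LIF condition taken alone the 2 knockout arrays lay above the 2 J1 arrays, while over all arrays the groups overlapped. Of the 28 marker probe sets, 5 separated upward and 1 downward with LIF, and 5 upward and 4 downward without it. The share over all probe sets was not computed for 2 against 2 arrays, so nothing is read from such separation. For Foxa2, second arrays read higher than first arrays in all 4 groups, by 0.60 to 2.12. Hnf4a (1450447_at) differed by 0.21 (SE 0.35), and its 3 probe sets above the limit ranged from 0.10 to 0.47. Dab2 (1420498_a_at) differed by 0.25 (SE 0.38), and its 3 probe sets above the limit had differences of 0.05 to 0.57. Pdgfra (1421916_at) differed by 0.20 (SE 0.46), and its other probe set above the limit (1438946_at) by 0.62 (SE 0.58). Pdgfra is also a gene of fibroblasts, and the fibroblast or feeder list had a median of -0.38 over 11 genes, with 8 lower. The mean level of that list ran from 6.73 to 8.33 on J1 arrays and from 6.83 to 7.55 on knockout arrays, and its part in the Pdgfra values was not tested. Afp (1436880_at) and Ttr (1459737_s_at) differed by -0.47 (SE 0.55) and 0.02 (SE 0.53), at near-background signal. The sign for Afp varied with the probe set, with 1.48 (SE 0.91) for 1436879_x_at.

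**Figure D3:**
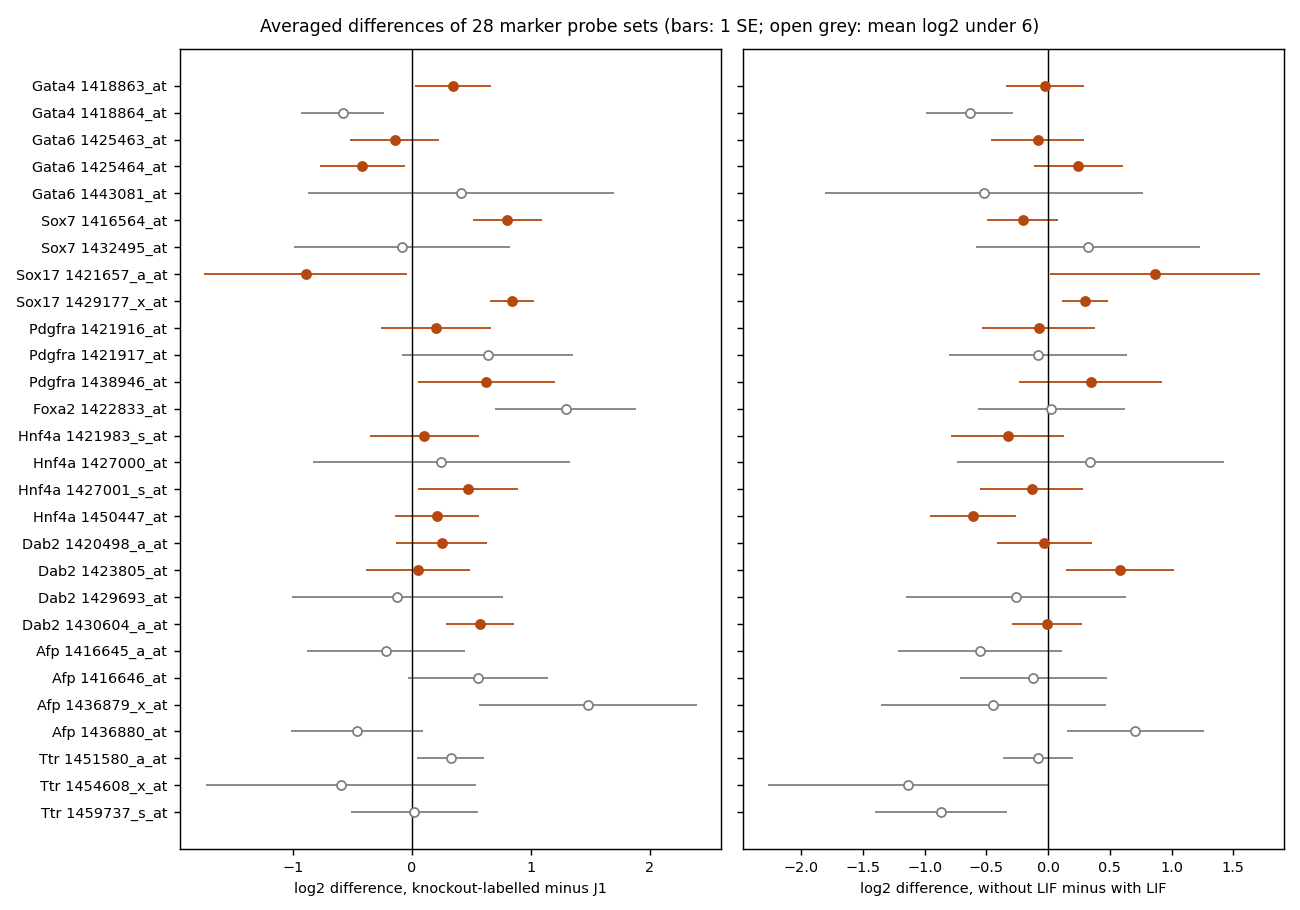
Log2 difference (horizontal axes) of the 28 marker probe sets that passed the filter, knockout minus J1 averaged over LIF on the left and without minus with LIF averaged over genotype on the right; bars are 1 SE and open grey points have a mean log2 under 6. The Sox17 probe set 1429177_x_at lies at 0.84 with a narrow bar and the other Sox17 probe set at -0.90.

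With LIF present, 25 of the 28 probe sets had a positive difference between the genotypes and 3 a negative one, and the median over the 10 genes was 0.47 against 0.01 over all genes. Of all probe sets 51.5% were positive, and of those near background 55.7%. This count rested on single arrays. Without the first J1 array with LIF it was 16 positive and 12 negative. Without the second knockout array with LIF, the array that stood apart, it was 17 of 26, with a median of 0.06. It was 23 of 28 without the second J1 array with LIF, and 22 of 28 without the first knockout array with LIF. Neither at an adjusted p (0% of all probe sets) nor at an unadjusted p under 0.05 (5.02% of all) did any of the 28 pass. Without LIF, 11 were positive and 17 negative, the median over genes was -0.06, and 0 passed at an adjusted p (0% of all). At an unadjusted p, 3 of 28 did, beside 3.68% of all. These were Sox17 1429177_x_at, Sox7 1416564_at and Gata4 1418864_at, the last of them lower in the knockout arrays.

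The number of the 30 probe sets at a log2 of at least 6 was 12 and 13 on the J1 arrays with LIF and 13 and 14 on those without. It was 17 and 18 on the knockout arrays with LIF and 14 and 16 on those without. Over all probe sets the share at or above 6 was 65.2% and 66.8% on the J1 arrays with LIF and 64.0% and 66.5% on those without. It was 64.7% and 69.0% on the knockout arrays with LIF and 65.2% and 66.9% on those without.

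The second comparison asked whether 12 hours without LIF changes these markers. None of the 28 probe sets was called by limma in J1 cells, in knockout cells or on average, and 0% of all probe sets were called in each. At an unadjusted p under 0.05 there was 1 of 28 in J1 cells (3.61% of all), 1 in knockout cells (4.07%) and 0 on average (4.02%). The median over the 10 genes was -0.01 in J1 cells, -0.20 in knockout cells and -0.03 on average. With quantile normalization the first and the last of these were 0.02 and 0.01. No marker probe set had all 4 arrays without LIF above, or all 4 below, the 4 with it, which held for 1.02% and 1.33% of all probe sets. The same count for genotype in the lower direction was also 0 of 28, beside 1.74% of all.

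Hnf4a (1450447_at) read 6.96 and 7.83 in J1 cells with LIF and 6.90 and 7.22 without it, and 7.48 and 8.28 in knockout cells with LIF and 6.54 and 7.45 without it. The averaged difference, without minus with LIF, was -0.61 (SE 0.35), and it kept a negative sign over the alternatives, from -0.84 to -0.38. The other Hnf4a probe sets above the limit were also negative, at -0.33 (SE 0.46) for 1421983_s_at and -0.14 (SE 0.42) for 1427001_s_at. The near-background 1427000_at differed by 0.34 (SE 1.08). Each of these other probe sets changed sign under at least 1 alternative. Dab2 gave -0.03 (SE 0.38), Gata4 -0.02 (SE 0.32), Pdgfra -0.08 (SE 0.46) and Foxa2 0.03 (SE 0.60). Gata6 gave 0.25 (SE 0.36), Sox7 -0.21 (SE 0.29) and Sox17 0.30 (SE 0.19). At near-background signal, Ttr (1459737_s_at) gave -0.87 (SE 0.53) and Afp (1436880_at) 0.71 (SE 0.55). A sign kept over the alternatives was not particular to Hnf4a. It also held for these Ttr and Afp probe sets and for Sox17 1429177_x_at. The same was true of Dab2 1423805_at (0.58, from 0.28 to 0.88) and Gata4 1418864_at (-0.64, from -0.91 to -0.37). The probe set of unadjusted p under 0.05 in J1 cells was the Afp probe set 1436880_at, which read 3.05 and 4.02 with LIF and 5.57 and 5.70 without it. That difference of 2.09 (SE 0.78) lies at near-background signal, and in knockout cells the same probe set differed by -0.68 (SE 0.78). In knockout cells it was the Gata4 probe set 1418864_at, at -1.48 (SE 0.50), beside -0.74 (SE 0.45) for 1418863_at. In J1 cells the same Gata4 probe sets differed by 0.20 (SE 0.50) and 0.69 (SE 0.45).

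The interaction asked whether the response to LIF withdrawal differs between the lines. It was called for 0 of 28 probe sets (0% of all), and at an unadjusted p under 0.05 for 2, both of them Afp probe sets with means of 3.22 and 4.35, beside 3.55% of all. The median over the 10 genes was -0.16, and 0.37 over the 7 genes with a mean of at least 6, so its sign differed with the weak probe sets included. The genotype and LIF comparisons share arrays, so their values are not independent.

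The spread between replicate arrays was wide for these genes. The mean log2 level of the 10 markers was higher on the second array than on the first in all 4 groups, at 6.50 against 5.95 in J1 cells with LIF and 6.48 against 6.17 without it, and at 7.03 against 6.33 in knockout cells with LIF and 6.83 against 6.12 without it. Each of these gaps was larger than the genotype median of 0.23. The mean level of the fibroblast or feeder list was lower on the second array in all 4 groups. So were those of the trophoblast list and of the FGF and ERK list. The mean level of the further visceral endoderm genes was higher on the second array in all 4 groups. The part of any of these lists in the marker values was not tested. Among marker probe sets near background the median absolute difference between the 2 arrays of a group was 1.36, against 1.02 over all 16799 probe sets under 6. Among the 13 with a mean of 6 to 8 it was 0.76, against 0.48 over 13346 probe sets. Probe sets of one gene often did not follow each other. Of the 37 pairs of probe sets of the same gene, 23 had a positive and 14 a negative correlation over the 8 arrays. All 6 pairs of Dab2 were positive (r = 0.07 to 0.72). Hnf4a ranged from -0.53 to 0.88, and Gata6 from -0.60 to 0.49. The single pairs of Sox7 (-0.59) and Sox17 (-0.30) were negative, and that of Gata4 was 0.50. Between the 10 genes, each by its probe set of highest mean, 32 of 45 correlations were positive, with a median of 0.32 and a range of -0.78 to 0.83. All of these points share arrays and array-wide shifts.

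Other genes of the endoderm lineages gave the setting. Of 24 further visceral endoderm genes 21 were measured and 20 tested, with 13 higher and 7 lower in knockout cells (median 0.14) and 0 called. The lipoprotein gene Apom had -0.71 (SE 0.58). Spink1, a secreted trypsin inhibitor, read 9.67 and 9.72 in J1 cells with LIF and 8.52 and 8.23 without it, and 10.30 and 10.04 in knockout cells with LIF and 9.03 and 8.63 without it. All 4 arrays without LIF lay below all 4 with it, which held for 1 of the 20 genes tested and for 1.33% of all probe sets. Of these 20 genes, 10 were higher and 10 lower without LIF on average, with a median of -0.01 and 0 called. For Spink1 the averaged LIF difference was -1.33 (SE 0.19, limma adjusted p = 0.700), not a call, and the genotype difference was 0.47 (SE 0.19). The 15 parietal endoderm and basement membrane genes had a genotype median of -0.15, with 5 higher, 10 lower and 0 called. Sparc, a matrix glycoprotein of parietal endoderm, had a mean level of 12.04 and a genotype difference of 0.09 (SE 0.31). Snai1 had 0.25 (SE 0.36) and Stra6 -0.74 (SE 0.46).

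The FGF and ERK genes that instruct primitive endoderm were measured for 13 of 15, all with means above 6. They had a genotype median of 0.03, with 7 higher and 6 lower, and an averaged LIF median of 0.09, with 9 higher and 4 lower, and 0 called in either. Fgfr1, the receptor for FGF4 in these cells, had a LIF difference of 0.39 (SE 0.19) and a genotype difference of -0.22 (SE 0.19). The ETS factors Etv4 and Etv5, targets of the pathway, had genotype differences of 0.48 (SE 0.31) and -0.12 (SE 0.20).

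Foxa2 and Sox17 also mark definitive endoderm, and 8 further genes of definitive endoderm and mesendoderm were tested. Their genotype median was 0.22, with 5 higher, 3 lower and 0 called. Mixl1, a homeobox factor of mesendoderm, read 4.30 to 6.47 on the J1 arrays and 6.64 to 7.57 on the knockout arrays. The arrays did not overlap, which held in this direction for 2.1% of all probe sets. Its values in J1 cells with LIF, 4.81 and 4.30, were under the near-background limit of 6. The difference was 1.91 (SE 0.30, limma adjusted p = 0.652), with 2.85 (SE 0.43) with LIF and 0.97 (SE 0.43) without. Kdr had -0.24 (SE 0.38). The 10 trophoblast markers tested had a median of -0.42, with 3 higher and 7 lower. They included Krt18 at -1.20 (SE 1.16) and Ascl2 at 0.59 (SE 0.60). Among the fibroblast or feeder markers Fn1 differed by -0.46 (SE 0.16), Tagln by -1.90 (SE 1.90) and Pdgfrb by 0.67 (SE 0.85). Among the 16 pluripotency genes 11 were higher and 5 lower (median 0.13). Tbx3, a T-box factor of naive cells, read 9.02 to 9.86 on the J1 arrays and 10.09 to 10.50 on the knockout arrays, a difference of 0.87 (SE 0.20, limma adjusted p = 0.794). Sox2 had -0.10 (SE 0.17) and Dppa5a -0.01 (SE 0.24). None of these lists held a called gene for genotype or LIF. The part of these other cell types in the marker values was not tested.

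**Figure D4:**
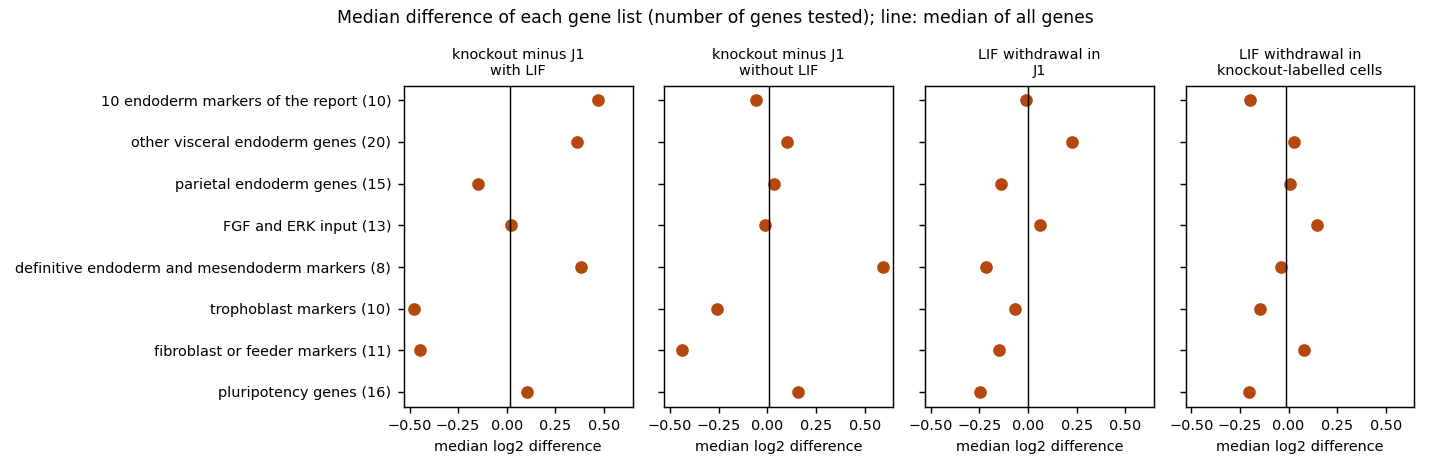
Median log2 difference (horizontal axes) of each gene list (rows, with the number of genes tested) in 4 comparisons; the vertical line is the median of all genes. The 10 endoderm markers lie at 0.47 for knockout minus J1 with LIF and at -0.06 without LIF.

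The genes whose pattern over the 8 arrays was most like a marker's were listed for the 7 markers with a probe set of at least 6, by Pearson r among 23802 to 23804 probe sets of that level. The closest were Heatr6 (r = 0.99) and Vwa5a (0.97) for Gata4, Ces1h (0.99) and Usp2 (0.99) for Gata6, and Acsm2 (0.96) and Tmem259 (0.96) for Sox7. For Sox17 they were 1110059E24Rik (0.96) and Sirt1 (0.95), and for Pdgfra Zfp952 (0.96) and 1700120C14Rik (0.96). For Hnf4a they were Ccdc103 (0.98) and Ywhaq (0.98), and for Dab2 Acadvl (0.99) and Med24 (0.98). These are the highest of so many values over only 8 points. None of the 7 markers was among the closest of another. Foxa2, Afp and Ttr had no probe set of that level, so they could not appear.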

How the data were processed

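Total RNA of the 8 samples was hybridised as biotin-labelled cRNA to single-colour Affymetrix arrays, per the labels' protocols. The authors deposited a linear intensity for each probe set. GCRMA is the tool listed in the submitters' processing notes, without a version or a stated role. Each deposited column has a mean of 500 after 2% is trimmed at each end, and no log had been taken, so the step that made the values is not known. No detection value was used.

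The table held 45101 probe sets, and 64 controls were left out. Of the 45037 remaining, 34945 have 1 gene symbol, 932 several and 9160 none listed. Genes were named only from probe sets with 1 symbol, and 0 symbols changed through RefSeq (GRCm38.p6). The log2 of each deposited value was used, with no pseudocount. A filter kept the 43439 probe sets that reached log2 4 on 2 or more arrays. They were fitted with limma 3.58.1 in R 4.3.3, as 4 group means from the 8 arrays, with moderated variances, in 7 contrasts, with Benjamini-Hochberg adjustment. The fit was tested on simulated data. 28 of the 30 marker probe sets passed the filter. Gene lists use the probe set of highest mean per gene. At most 0.00222% of values were identical between replicate arrays.

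The markers and lists were chosen with earlier results of these data known. The rule for named genes took all marker probe sets, per list the gene of highest level and those of largest positive and negative genotype difference at a mean log2 of at least 6, and the 2 closest patterns per marker. Alternatives covered the filter, quantile normalization, a pseudocount of 16, the variance prior, the probe set per gene, the letter r in the titles as a block, and each array left out. The number of arrays limits the precision. Figures used matplotlib 3.10.9 in Python 3.11.15.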

Additional observations from a re-analysis of the deposited data

How the results depend on the processing

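No marker probe set was called under any of the 14 alternatives, in any of the 7 contrasts. Over all probe sets the count stayed at 0 except for 1, not a marker, in the averaged genotype contrast with a trended and robust prior. The sign of an uncalled difference changed in 253 of 2611 alternative values for the markers; 15 of 28 averaged genotype differences and 22 of 28 averaged LIF differences changed sign at least once. The median over the 10 genes ran from -0.251 to 0.628 without LIF between genotypes when each array was left out, from -0.688 to 0.324 for LIF withdrawal in knockout cells, and from -0.775 to 0.463 for the interaction, which was 0.370 at a mean log2 of at least 6. The outer values came from leaving out a knockout array without LIF, or the first J1 array with LIF for the upper value of the interaction. For the averaged genotype contrast the median ran from -0.0247 (without the second knockout array without LIF) to 0.480. Using the letter r of the titles as a replicate block, 0 markers were called in all 7 contrasts and the lowest adjusted p for genotype was 0.593. It was not read as pairing the arrays, since the labels do not state a pairing. Second-minus-first differences correlated at 0.0496 to 0.198 between groups, all 6 positive and 2 of them under 0.1. The mean of the 10 markers was higher on the second array in all 4 groups. Over all 45037 probe sets the median second-minus-first difference was positive in all 4 groups. It was 0.06 in J1 cells with LIF, 0.07 in J1 cells without it, 0.16 in knockout cells with LIF and 0.05 in knockout cells without it. No test of a shared shift was run. For 3 of the 10 genes every probe set was near background.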
